A study of Capra hircus with 4 samples.

Results

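The genes described here carry the production and breakdown of cyclic nucleotides in the goat ovary: the phosphodiesterases PDE3A, PDE4D, PDE5A, PDE7B, PDE8A and PDE10A, the guanylyl cyclase genes GUCY1A2 and NPR2, and NPPC. They were chosen by name, and each of the 9 had 1 row among the 28944 genes of the files. Ovaries of 4 does of about 3 years, 2 Du'an and 2 Nubian goats, were collected at estrus and their nuclei were sequenced with a droplet method, 1 library per goat. Nubian goats are labelled polytocous (several kids per litter) and Du'an goats monotocous (1 kid), and all 4 does had carried a vaginal device with 300 mg progesterone for 17 days to bring them into step. Each RNA molecule was tagged with a unique molecular identifier (UMI), so that the values are UMI counts.

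Cyclic AMP and cyclic GMP are second messengers, and phosphodiesterases (PDEs) end their signals by hydrolysis. In the follicle, mural granulosa cells release C-type natriuretic peptide, the product of NPPC, which acts on its receptor NPR2 on the cumulus cells around the oocyte. The receptor makes cyclic GMP, which passes into the oocyte, holds back PDE3A there and keeps the oocyte in meiotic arrest until the surge of luteinizing hormone. In vessel walls, nitric oxide from the endothelium activates soluble guanylyl cyclase in muscle cells and pericytes, and PDE5A degrades the cyclic GMP formed.

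The 48332 deposited nuclei held between 40573246 and 71613892 UMIs per goat, and 44872 nuclei passed the filters, with a median of 1755 to 3317 UMIs per goat. Clustering, in which these 9 genes and the other genes of the pathway were not used, gave 28 clusters. Marker genes placed 35724 nuclei in 15 classes, called "like" a cell type because no annotation of nuclei was used, and left 9148 nuclei of mostly low depth without a name (10.7 to 26.3% of a goat's nuclei). Unnamed clusters of 4540 and 2117 nuclei came nearest to the smooth muscle markers. The smooth muscle-like class of 2630 nuclei leaves them out, so its levels do not describe them. Another unnamed cluster, of 2124 nuclei at low depth, came nearest to the epithelial markers, with 4 of 7 higher. The epithelial-like class of 551 nuclei leaves that cluster out, so epithelial-like levels do not describe it. UMIs were summed per goat and class and scaled to CPM, the count of a gene for each 1000000 UMIs of the sum. The mural granulosa-like class came from 3 clusters, each mostly from 1 goat, and Du'an replicate 1 had only 2 such nuclei, so that class has 3 goats. Sums were kept where a goat had at least 20 nuclei of a class, which left ciliated-like sums from 2 goats and a fibroblast-like sum from Nubian replicate 1 alone (483 of 506 such nuclei). Markers of oocytes were near 0, with 364 UMIs of GDF9 and 0 of BMP15 over all nuclei, so the oocyte's own PDE3A was not measured here.

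8 of the genes had between 2798 UMIs (NPR2) and 545143 (PDE7B) in all, while NPPC had 67 UMIs in 45 nuclei. Each class was compared with the mean of the others by edgeR, with the goat as a block and p-values adjusted over 15962 genes. Over 15 classes, 36 of the 135 combinations of a gene and a class were called higher (26.7%) and 40 lower (29.6%), where 16.7% and 10.1% of all combinations were called. Because the classes were formed from the same nuclei, an adjusted p does not state that a class exists. It sets a difference against the variation left between all sums once goat and class are fitted. The spread of the goats within the named class alone is not what it measures. The fibroblast-like sum has no spread of its own and was taken to vary like the other classes, so its 2 higher calls, PDE3A and PDE5A, rest on 1 goat. Of the 9 genes, the vessel and muscle classes had 2 called higher and 1 lower in pericyte-like nuclei (7.19% and 4.77% of all genes), 4 and 0 in smooth muscle-like nuclei (19% and 4.49%), 3 and 1 in blood endothelial-like nuclei (19.4% and 7.71%) and 4 and 3 in lymphatic endothelial-like nuclei (17% and 6.83%). The granulosa classes had 1 higher and 4 lower in cumulus (20.2% and 11.9%), 4 and 3 in mural (18% and 12.3%), 3 and 1 in progenitor (16.8% and 9.28%), 2 and 4 in cycling granulosa-like nuclei (19.1% and 14.5%) and 2 and 2 in the cluster without a state (12% and 10.3%). The remaining classes had 4 and 2 in epithelial-like nuclei (14.5% and 8.95%), 3 and 2 in ciliated-like (16.4% and 7.68%), 2 and 3 in theca-like (7.05% and 8.55%), 2 and 0 in the 1 fibroblast-like sum (9.35% and 0.382%) and 0 and 6 in macrophage-like nuclei (28.7% and 21.1%).

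T or natural killer-like nuclei had 0 of the 9 genes called higher, where 26.4% of all genes were, and 8 called lower, where 22.4% were. Their levels are given below as a low reference, which for PDE7B and PDE4D is not near 0. In single nuclei free RNA also gives UMIs, and its part in the low levels was not tested.

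**Figure D1:**
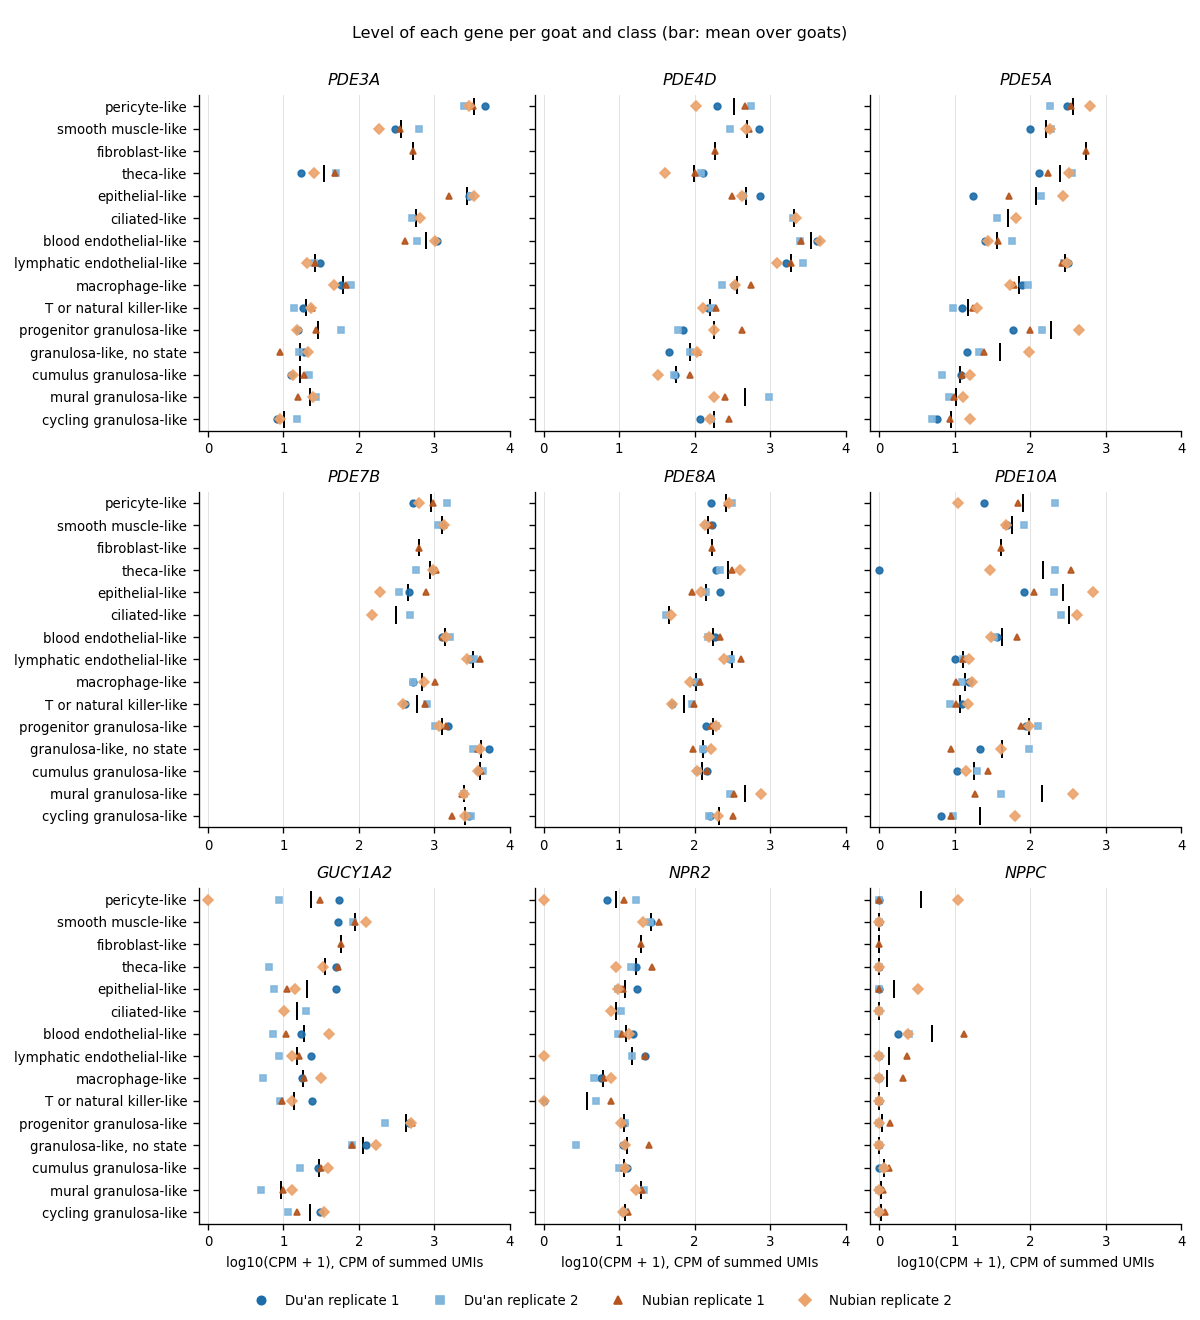
Level of each gene by cell class, as log10(CPM + 1) of the summed UMIs, with 1 point per goat coloured by goat and a bar at the mean over goats. PDE3A stood highest in pericyte-like nuclei (2484 to 4711 CPM), PDE4D in blood endothelial-like nuclei (2452 to 4602 CPM) and GUCY1A2 in progenitor granulosa-like nuclei (222 to 509.8 CPM).

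NPPC, the ligand gene, was almost absent from these nuclei. Its highest count was 24 UMIs in blood endothelial-like nuclei, with 1 and 3 UMIs in the Du'an goats and 19 and 1 in the Nubian goats (in every list of 4 values the order is Du'an 1, Du'an 2, Nubian 1, Nubian 2). Nubian replicate 1 thus held most of them, and 20 of the 24 lay in the smaller of 2 blood endothelial clusters. Mural granulosa-like nuclei, named by markers after the textbook source of the peptide, had 3 UMIs in all, every one in Nubian replicate 1. Cumulus granulosa-like nuclei had 6. In nuclei thinned to 1000 UMIs, NPPC was seen in 0 of 4308 mural granulosa-like nuclei of Nubian replicate 1, which leaves room for up to 0.0856% of nuclei with a UMI (95% exact upper limit) and sets no limit on how many express the gene. edgeR called NPPC higher in blood endothelial-like nuclei (adjusted p = 1.52e-09) and in epithelial-like nuclei (adjusted p = 0.000435), where all 5 UMIs came from Nubian replicate 2. DESeq2 called neither, with adjusted p of 0.355 and 0.573, and the epithelial call ended without Nubian replicate 2 (log2 difference -1.07). Without Nubian replicate 1, which held 19 of the 24 blood endothelial UMIs, NPPC had no value, so neither call could be tried there. At this depth a difference of NPPC among the granulosa states was not detectable.

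NPR2, the receptor that makes cyclic GMP from the peptide, was low in all classes and highest in smooth muscle-like nuclei. There it stood at 25.8 and 24.4 CPM in the Du'an goats and 32.3 and 19.7 in the Nubian goats. In mural granulosa-like nuclei (3 values, Du'an 2 first) it was 20, 19.1 and 15.6 CPM, and in cumulus granulosa-like nuclei 11.8, 8.98, 10.7 and 11 CPM. The goats of the mural state lay above all goats of the cumulus state. The smooth muscle level was higher than the mean of the other classes by 1.30 on the log2 scale (SE 0.23, adjusted p = 9.74e-06) and the mural level by 1.13 (SE 0.23, adjusted p = 0.000135). NPR2 was lower in macrophage-like (-1.23, SE 0.34, adjusted p = 0.00227) and T or natural killer-like nuclei (-1.79, SE 0.36, adjusted p = 3.29e-05), the former without a call when Du'an replicate 2 was left out (adjusted p = 0.0689). With 2.92% of thinned smooth muscle-like nuclei holding a UMI, against 0.148% of T or natural killer-like nuclei (6.08% and 0.700% at full depth, median 1945 and 2288 UMIs), the gene could be followed in sums of nuclei only.

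GUCY1A2 encodes an alpha subunit of soluble guanylyl cyclase, the nitric oxide sensor. Its level in progenitor granulosa-like nuclei was 463 and 222 CPM in the Du'an goats and 509.8 and 482 in the Nubian goats. Each of these values exceeded every value in any other class, the next being 167 CPM in the granulosa-like cluster that had no state. The difference from the mean of the other classes was 4.29 on the log2 scale (SE 0.17, adjusted p = 9.73e-26). GUCY1A2 was among the 10 leading genes of that cluster, so its height there is a description of the cluster. The cluster was placed with the granulosa cells by 3 of 6 progenitor markers, while its summed granulosa markers, 1475 to 2408 CPM, were nearer to those of smooth muscle-like nuclei (945 to 1429 CPM) than to those of cumulus granulosa-like nuclei (5642 to 7351 CPM). What that says of its origin was not tested.

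Smooth muscle-like nuclei had 51.1, 83.2, 88.5 and 122 CPM of GUCY1A2, higher than the mean of the other classes by 1.76 (SE 0.21, adjusted p = 9.59e-10). Pericyte-like nuclei, also a contractile cell type, held 52.8, 7.84, 29.0 and 0 CPM, and did not pass the test (-0.36, SE 0.42, adjusted p = 0.719). These pericyte values come from 9, 1, 11 and 0 UMIs, against 553 UMIs in all in smooth muscle-like nuclei. The pericyte level is therefore poorly measured. In the order of levels smooth muscle-like nuclei stood next to the granulosa-like cluster without a state (79.1 to 167 CPM), and the goats of these classes overlapped. In 6 classes GUCY1A2 was called lower, the lowest being mural granulosa-like nuclei with 4.07, 8.96 and 12 CPM (-1.58, SE 0.30, adjusted p = 3.76e-05). That call ended and the difference turned direction when nuclei were classed by a marker gate in place of clusters (0.41, adjusted p = 0.414). The lower calls in blood endothelial-like, lymphatic endothelial-like, macrophage-like and epithelial-like nuclei each ended when Du'an replicate 2, Nubian replicate 1 or Nubian replicate 2 was left out (adjusted p up to 0.187), and the epithelial call also ended with the highest doublet scores removed (adjusted p = 0.988). The T or natural killer-like level was 12.9 ± 6.94 CPM (SD, n = 4).

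PDE5A, the phosphodiesterase specific to cyclic GMP, was called higher in 7 classes, in vessel walls and beyond them, among them the fibroblast-like sum of 1 goat. Pericyte-like nuclei had 305, 180.2, 348 and 622 CPM. The lymphatic endothelial-like values were 317, 279.6, 261 and 301 CPM, the narrowest spread among the higher classes with 4 goats. Neither of these ranges overlapped the range of cumulus granulosa-like nuclei, 5.77 to 15 CPM. The log2 differences were 2.35 (SE 0.29, adjusted p = 9.59e-09) for pericyte-like and 2.44 (SE 0.25, adjusted p = 9.54e-12) for lymphatic endothelial-like nuclei. Theca-like nuclei had 128, 357, 173 and 321 CPM (1.73, SE 0.31, adjusted p = 3.24e-05). Smooth muscle-like nuclei had 97.1, 188, 179 and 181 CPM (1.40, SE 0.27, adjusted p = 3.38e-05), a call that ended under the marker gate (adjusted p = 0.142). The fibroblast-like sum held 543 CPM, and the call in epithelial-like nuclei (0.95, SE 0.32, adjusted p = 0.0257) ended without Du'an replicate 2 or Nubian replicate 2 (adjusted p up to 0.393).

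Blood endothelial-like nuclei stood apart from the lymphatic ones, with 24.3, 55.9, 36.0 and 26.7 CPM of PDE5A and no call (-0.83, SE 0.34, adjusted p = 0.0623). The lowest levels were those of cumulus (10.8 ± 3.79 CPM, SD, n = 4), mural (9.32 ± 2.40 CPM, n = 3) and cycling granulosa-like nuclei (7.80 ± 4.94 CPM, n = 4), which overlapped each other and the T or natural killer-like level of 13.8 ± 4.69 CPM (n = 4). At such levels PDE5A in these states cannot be told apart from that low reference. In the progenitor granulosa-like cluster PDE5A ranged from 57.2 CPM in Du'an replicate 1 to 444 CPM in Nubian replicate 2.

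**Figure D2:**
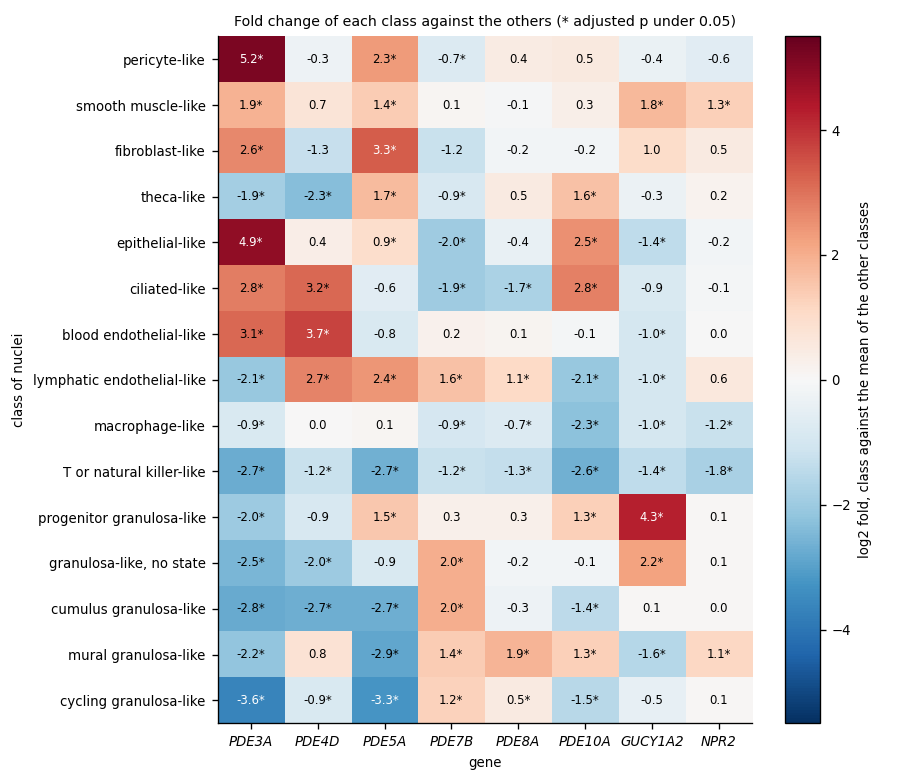
Log2 difference of each gene between a class and the mean of the other classes from the edgeR fit (colour and number), with calls at an adjusted p under 0.05 marked; NPPC was left out for its low counts. PDE3A had the widest span, from -3.6 in cycling granulosa-like to 5.2 in pericyte-like nuclei.

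PDE3A degrades cyclic AMP and is held back by cyclic GMP. Its level was 4711 and 2484 CPM in the pericyte-like nuclei of the Du'an goats and 3209 and 2853 CPM in those of the Nubian goats. Epithelial-like nuclei had 2854, 3052, 1561 and 3378 CPM. The pericyte-like and epithelial-like ranges overlapped each other, and neither overlapped the range of any other whole class. Within the blood endothelial-like class, the smaller of 2 clusters had 1641 CPM with all goats pooled, which lies inside the epithelial-like range. Pericyte-like and epithelial-like nuclei stood 5.17 (SE 0.21, adjusted p = 3.97e-26) and 4.89 (SE 0.20, adjusted p = 4.82e-26) above the mean of the other classes on the log2 scale. With all goats pooled, the unnamed cluster nearest to the epithelial markers had 44.3 CPM of PDE3A, against 3248 CPM in the epithelial-like class. A UMI of PDE3A was found in 82.1% of thinned pericyte-like and 76.6% of thinned epithelial-like nuclei, and in 2.18% of T or natural killer-like nuclei, against 84.5%, 85.5% and 4.42% at full depth (median 1387, 3797 and 2288 UMIs). The pericyte-like nuclei also held smooth muscle markers, 3402 to 5931 CPM in sum against 4862 to 7510 CPM in smooth muscle-like nuclei, while smooth muscle-like nuclei held 158 to 197 CPM of the pericyte markers against 704 to 1003 CPM.

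Smooth muscle-like nuclei held less PDE3A than pericyte-like nuclei in every goat, at 298, 618, 345 and 181 CPM, which still lay above the mean of the other classes (1.92, SE 0.21, adjusted p = 1.53e-10). PDE3A was called higher in 6 classes, the fibroblast-like sum of 1 goat included, and lower in the other 9, so no class was left without a call. All granulosa states were among the lower ones, although progenitor granulosa-like nuclei turned direction under the marker gate (0.39, adjusted p = 0.510). The mean in cumulus, mural and cycling granulosa-like nuclei was 15.6, 21.3 and 9.24 CPM, beside 18.7 CPM in T or natural killer-like nuclei. In the order of levels the ranges of neighbours overlapped from macrophage-like nuclei (61.3 CPM) down, and the macrophage call (-0.85, SE 0.29, adjusted p = 0.0112) ended without Nubian replicate 1 or Nubian replicate 2 (adjusted p up to 0.0920).

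PDE10A, which degrades both nucleotides, was called higher in 5 classes, with wide differences among the goats. The highest mean was that of ciliated-like nuclei, which had 250 CPM in Du'an replicate 2 and 409 CPM in Nubian replicate 2 and no other goat (2.75, SE 0.53, adjusted p = 4.52e-05). In epithelial-like nuclei the goats had 82.0, 206, 112 and 666 CPM, and in theca-like nuclei 0, 211, 346 and 28.1 CPM. Mural granulosa-like nuclei had 39.9 and 17.6 CPM in Du'an replicate 2 and Nubian replicate 1 but 365 CPM in Nubian replicate 2. The mural difference of 1.33 (SE 0.47, adjusted p = 0.0258) therefore rested on 1 goat, and without Nubian replicate 2 it was -0.52 (adjusted p = 0.404). The theca-like difference of 1.61 (SE 0.50, adjusted p = 0.0192) was lost without Du'an replicate 2 or Nubian replicate 1 (adjusted p up to 0.457). Progenitor granulosa-like nuclei were steadier, with 87.8, 127, 75.2 and 95.9 CPM (1.32, SE 0.40, adjusted p = 0.00938), although that call did not hold without either Du'an goat (adjusted p up to 0.147). The epithelial difference was 2.50 (SE 0.42, adjusted p = 3.94e-06). With all goats pooled, the unnamed cluster nearest to the epithelial markers had 24.9 CPM of PDE10A, against 557 CPM in the epithelial-like class. PDE10A was called lower in 5 classes, of which cumulus granulosa-like, cycling granulosa-like and lymphatic endothelial-like nuclei had no call without Du'an replicate 2 (adjusted p up to 0.159).

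PDE4D, specific to cyclic AMP, was highest in the endothelial cells. Blood endothelial-like nuclei had 4228 and 2452 CPM in the Du'an goats and 2568 and 4602 CPM in the Nubian goats, and lymphatic endothelial-like nuclei 1637, 2688, 1915 and 1225 CPM. Both ranges lay above every value outside the endothelial-like and ciliated-like classes, of which the highest was 969.7 CPM. The log2 differences were 3.71 (SE 0.25, adjusted p = 2.80e-18) and 2.73 (SE 0.25, adjusted p = 2.68e-13). Ciliated-like nuclei of 2 goats had 1979.9 and 2167 CPM. The lowest level was that of cumulus granulosa-like nuclei, with 54.7, 51.6, 86.7 and 31.9 CPM (-2.67, SE 0.39, adjusted p = 2.85e-07), below the 130.0 to 190.2 CPM of T or natural killer-like nuclei.

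PDE7B, another enzyme specific to cyclic AMP, had the most UMIs of the genes. Its highest means were in the granulosa-like cluster without a state and in cumulus granulosa-like nuclei. Cumulus granulosa-like nuclei had 3814, 4389, 4103 and 3796 CPM, a spread of 280.3 CPM (SD, n = 4). The granulosa-like cluster without a state had 5303, 3235, 3774 and 3970.4 CPM. Both stood 2.00 above the mean of the classes on the log2 scale (SE 0.16 and 0.17, adjusted p = 2.91e-14 and 1.38e-13). Mural granulosa-like nuclei had 2456, 2325 and 2482 CPM (1.39, SE 0.20, adjusted p = 1.40e-07) and cycling granulosa-like nuclei 2536 ± 607 CPM (SD, n = 4; 1.25, SE 0.18, adjusted p = 8.92e-08). Progenitor granulosa-like nuclei, at 1270.0 ± 232 CPM, had no call (0.28, SE 0.19, adjusted p = 0.332).

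Outside the granulosa cells, lymphatic endothelial-like nuclei had 2946, 3312, 3945 and 2731 CPM of PDE7B (1.59, SE 0.17, adjusted p = 4.01e-11). That range overlapped those of the cumulus and cycling classes and of the cluster without a state. It lay above the mural and progenitor ranges. Since PDE7B was abundant, its UMIs were set beside those of FSHR, the receptor of follicle-stimulating hormone, which marks granulosa cells. The number of PDE7B UMIs per FSHR UMI was 1.15 in cumulus granulosa-like nuclei (range over goats 1.08 to 1.25) and 1.71 in T or natural killer-like nuclei (1.21 to 2.58). In lymphatic endothelial-like nuclei it was 9.04 (6.21 to 11.7), in smooth muscle-like nuclei 5.36 (4.23 to 7.59) and in blood endothelial-like nuclei 4.61 (2.82 to 9.44). Over the granulosa classes the mean ratio ran from 1.09 in cycling granulosa-like nuclei to 2.57 in the cluster without a state (1.29 to 3.65). The T or natural killer-like mean, with FSHR at 377 CPM and PDE7B at 584 CPM, lay within that span. In every goat the lymphatic endothelial-like ratio was above those of the granulosa classes. The remaining classes had means from 1.91 in pericyte-like to 4.71 in theca-like nuclei. PDE7B was seen in 82.7% of thinned lymphatic endothelial-like, 85.8% of cumulus granulosa-like and 31.9% of T or natural killer-like nuclei, and in 89.3%, 93.8% and 56.1% of them at full depth (median 2014.5, 4145 and 2288 UMIs).

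PDE8A, a further enzyme specific to cyclic AMP, was highest in mural granulosa-like nuclei, with 292 CPM in Du'an replicate 2 and 332 and 758 CPM in the Nubian goats. All 3 exceeded every value in cumulus granulosa-like nuclei, 143, 109, 144 and 108 CPM, while the lowest 2 lay within the lymphatic endothelial range of 245 to 413 CPM. The mural difference was 1.87 (SE 0.19, adjusted p = 1.91e-11) and the lymphatic 1.11 (SE 0.18, adjusted p = 1.64e-06). The T or natural killer-like level was 71.5 ± 25.8 CPM (SD, n = 4; -1.29, SE 0.23, adjusted p = 4.58e-06).

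The granulosa states were compared in a fit of their own, each against the mean of the other 3, over 12990 genes, which did not include NPPC. Of 32 combinations of the 8 genes and 4 states, 8 were called higher and 11 lower, where 13.9% and 12.5% of all combinations were called. Among the 4 states the genes split: PDE4D, PDE8A and NPR2 were higher in the mural state, PDE7B in the cumulus state, and GUCY1A2, PDE5A, PDE10A and PDE3A in the progenitor cluster. That cluster, whose origin was not tested, is part of the mean that each other state was set against. By state the counts were 3 higher and 2 lower in mural (11.5% and 13.3% of all genes), 1 and 5 in cumulus (11.2% and 9.52%), 4 and 1 in progenitor (20.9% and 19.6%) and 0 and 3 in cycling granulosa-like nuclei (12% and 7.75%). The lower call of NPR2 in cumulus (-0.41, adjusted p = 0.0372) was lost in 9 alternatives, among them each goat left out in turn. The lower call of PDE5A in mural was lost in 6, and that of GUCY1A2 in cumulus in 4. No gene was higher in the cycling state, in which PDE5A (-1.75, adjusted p = 0.00503), GUCY1A2 (-1.23, adjusted p = 7.30e-05) and PDE3A (-1.14, adjusted p = 0.00561) were lower. The PDE3A call ended when the markers were left out of the clustering (adjusted p = 0.102), and the mean that PDE5A was set against includes the progenitor level, while the cumulus, mural and cycling ranges of PDE5A overlapped.

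Mural against cumulus compares 2 states named from marker genes, and where their nuclei lay in the follicle was not measured. Du'an replicate 1 had 1215 cumulus granulosa-like nuclei and 2 mural ones. Of the 8 genes 3 were called higher in the mural state and 1 lower, where 9.18% and 11.7% of all genes were called. PDE4D was 969.7, 253 and 178 CPM in the mural state, above all cumulus values, and differed by 3.08 on the log2 scale (SE 0.65, adjusted p = 0.00608). Du'an replicate 2 was the highest goat by far, and against the mean of the other states the mural call of PDE4D (1.95, adjusted p = 0.0160) was lost without that goat or under the marker gate (adjusted p up to 0.246). PDE8A differed by 1.94 (SE 0.34, adjusted p = 0.00223). NPR2 differed by 1.01 (SE 0.16, adjusted p = 0.00142), a call lost under the marker gate and when the markers were left out of the clustering (adjusted p up to 0.116). GUCY1A2 was lower in the mural state by -1.55 (SE 0.19, adjusted p = 0.000415). Of the alternatives only the marker gate ended that call, and there almost no difference was left (-0.060, adjusted p = 0.966). The GUCY1A2 difference thus depends on how nuclei were classed. PDE7B, at -0.51 (SE 0.18, adjusted p = 0.0688), did not pass.

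In the cumulus state PDE7B was higher than in the mean of the other states by 0.91 (adjusted p = 0.000744), while PDE4D (-2.16, adjusted p = 0.0114), PDE8A (-1.08, adjusted p = 0.0127) and PDE5A (-1.10, adjusted p = 0.0303) were lower. The cumulus calls of PDE4D and PDE8A were lost under the marker gate (adjusted p = 0.0504 and 0.0964), that of PDE8A also without Du'an replicate 2 (adjusted p = 0.0537), and that of PDE5A without Du'an replicate 2, Nubian replicate 1 or Nubian replicate 2 (adjusted p up to 0.173). Over all states the counts without Du'an replicate 2 were 5 higher and 7 lower, and the shares over all genes in that fit are not given here. In the progenitor cluster PDE10A (1.98, adjusted p = 0.0123) was not called without either Du'an goat (adjusted p up to 0.122), nor PDE3A (0.85, adjusted p = 0.00533) without Du'an replicate 2 (adjusted p = 0.0837). PDE5A in the progenitor cluster stood 4.12 above the other states (SE 0.27, adjusted p = 1.70e-07) and GUCY1A2 4.65 (SE 0.12, adjusted p = 3.21e-10). Neither was lost in any alternative tried.

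**Figure D3:**
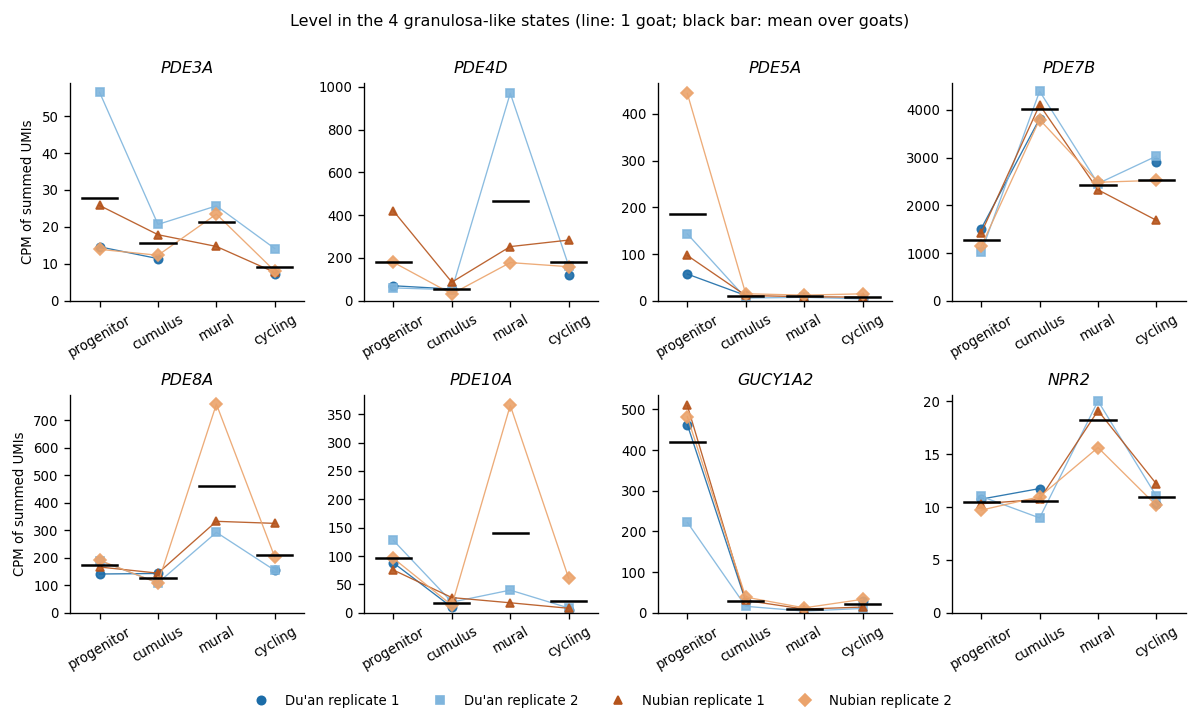
CPM (linear axis) of 8 genes in the 4 granulosa states, with a line and points for each goat and a black bar at the mean over goats. The goats of the mural state lay above those of the cumulus state for PDE4D, PDE8A and NPR2, and below them for GUCY1A2, whose progenitor values reached 509.8 CPM.

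The blood endothelial-like class was made of 2 clusters, which were compared after their genes had been seen. The 10 leading genes of the larger, of 1378 nuclei, included SELP, a selectin of venular endothelium, and those of the smaller, of 480 nuclei, BMX and GJA5, both known from arterial endothelium. Of the 6 genes with enough counts 1 was called higher in the smaller cluster, where 11.5% of 7440 genes were, and 3 lower, where 11% were. PDE3A had 73.6, 80.6, 55.7 and 207 CPM in the larger and 2629, 1535, 825 and 2026 CPM in the smaller cluster. No goat's values overlapped, and the difference was 4.24 on the log2 scale (SE 0.27, adjusted p = 2.84e-06). Summed pericyte markers were 15.4 to 42.7 CPM in the larger and 15.6 to 32.9 CPM in the smaller cluster, against 704 to 1003 CPM in pericyte-like nuclei, with KCNJ8 and STEAP4 at 0 in both. Other summed marker lists differed between the clusters without overlap of the goats: fibroblast markers were 130 to 460 CPM in the larger and 488 to 1250 CPM in the smaller cluster, and progenitor granulosa markers 659 to 877 and 1356 to 2129 CPM. Stromal markers ran from 3237 to 5995 CPM down to 1066 to 1274 CPM, smooth muscle markers from 615 to 1089 down to 302 to 544 CPM, and lymphatic endothelial markers from 267 to 319.5 down to 73.6 to 202 CPM. Their part in the differences of the genes was not tested. The larger cluster held 3400981 UMIs in its 1378 nuclei and the smaller 2233957 UMIs in its 480, so nuclei of the smaller were deeper. What depth or free RNA adds to the differences of the genes was not tested.

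PDE7B ran the other way, from 1833, 2206, 1897 and 2331 CPM in the larger to 386, 474, 517 and 277 CPM in the smaller cluster (-2.24, SE 0.19, adjusted p = 1.74e-05). PDE8A was lower as well (-0.95, SE 0.21, adjusted p = 0.00659), and so was PDE5A (-1.09, SE 0.33, adjusted p = 0.0368), whose call was lost without Du'an replicate 1 or Nubian replicate 1 and in 2 other alternatives (adjusted p up to 0.229). PDE4D, which of these 6 genes stood highest against the other classes, differed by 0.11 (SE 0.15, adjusted p = 0.660) between the clusters.

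**Figure D4:**
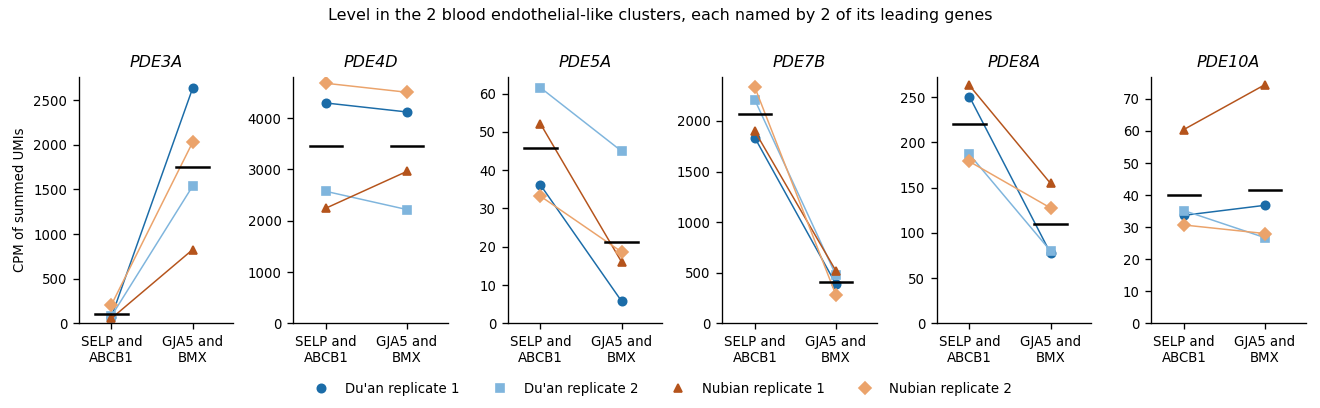
CPM (linear axis) of 6 genes in the 2 blood endothelial-like clusters, with lines joining the values of 1 goat. PDE3A rose from 55.7 to 207 CPM in the larger cluster to 825 to 2629 CPM in the smaller in every goat, while PDE7B went from 1833 to 2331 CPM down to 277 to 517 CPM.

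The other genes of the pathway were 57 in the files, of which 47 were tested across classes. In pericyte-like nuclei 5 of 9 adenylyl cyclases, 3 of 10 genes of cyclic GMP production and 4 of 15 effectors were called higher, where 7.19% of all genes were. The effectors included PRKG2, a kinase driven by cyclic GMP (log2 difference 6.38), and MRVI1, a substrate of such a kinase (5.69), and the largest change of a phosphodiesterase was PDE4C (7.21). In smooth muscle-like nuclei 5 of 10 genes of cyclic GMP production were called higher, against 19% of all genes, among them NOS1 (4.73), beside the adenylyl cyclase ADCY8 (5.22) and MRVI1 (4.63). Blood endothelial-like nuclei had 4 of 10 higher, against 19.4%, led by NOS3, the endothelial nitric oxide synthase (6.53), and ADCY4 stood out among the cyclases (5.60). Epithelial-like nuclei had 6 of 10 higher, against 14.5%, led by CORIN, which cuts natriuretic peptide precursors (6.87).

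Lymphatic endothelial-like nuclei had 6 of 13 other phosphodiesterases higher and 3 lower, against 17% and 6.83% of all genes, with PDE4B at 5.97, and ADCY4 at 5.91. In T or natural killer-like nuclei, where none of the 9 genes was higher, 6 of 13 other phosphodiesterases were, against 26.4% of all genes, among them PDE4B (4.14) and PDE3B (3.27), while 3 were lower, against 22.4%. The cyclase ADCY7 stood there at 5.67. Among the granulosa classes, PDE8B, the paralog of PDE8A, was higher in cumulus granulosa-like nuclei by 2.31, and PRKAR2B, a regulatory subunit of protein kinase A, was higher in the mural class by 2.89. PDE8B was also called higher in the cycling class (1.87) and the cluster without a state. PRKAR2B was also called higher in the cumulus (1.55), progenitor (1.19) and cycling classes and in the cluster without a state. Between the mural and cumulus states PDE8B was lower in the mural state by -0.97 (adjusted p = 0.00261), the opposite direction to PDE8A. Progenitor granulosa-like nuclei had 0 of 10 genes of cyclic GMP production called higher, where 16.8% of all genes were, and 2 of 13 other phosphodiesterases, including PDE9A, a further enzyme for cyclic GMP (2.31). Of these 13, 5 were called lower there, against 9.28% of all genes.

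Levels over the 15 classes were compared with those of 13264 genes, as a description, by the correlation of log2(CPM + 1). SLIT3 and STUM were among the genes most like PDE3A (r = 0.92 and 0.90). The genes most like PDE5A were ETV1, CTIF and ARHGAP28 (0.91, 0.91 and 0.88), and those most like PDE7B were MYZAP, SUSD4 and MMP16 (0.90, 0.89 and 0.86). PREX2 (0.89) was near PDE4D, EXOC6B (0.90) near PDE8A, PPP1R36 (0.87) near PDE10A, ZNF3 (0.87) near GUCY1A2, APLF (0.88) near NPR2 and FLT1 (0.93) near NPPC. NPPC reached only 4.01 CPM, from 24 UMIs in blood endothelial-like nuclei, so its pattern rests on very few counts. FLT1 is also one of the markers by which that class was named. The 15 points share 4 libraries and differ in depth. Among the RefSeq genes of assembly ARS1.2, PDE10A overlapped 10 other entries, PDE4D 2, and PDE8A and GUCY1A2 1 each, so that reads in those stretches may be divided between entries, while the other 5 genes overlapped none.

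Nubian and Du'an goats were compared within the 12 classes that had all 4 goats, 2 against 2. edgeR called 0 of the 89 combinations of a gene and a class, where 0% of all were called higher and 0.000948% lower, and 5 had an unadjusted p under 0.05. The values of the breeds did not overlap in 27 of the 89, where 31.4% of all combinations did not overlap. Of the 27, the Nubian goats were higher in 20 (22.5% of the 89) and lower in 7 (7.87%), where these shares were 16.7% and 14.7% over all combinations. PDE5A was higher without overlap in 5 of 12 classes and lower in 1, and GUCY1A2 higher in 4 of 10, the highest such counts among the genes. All classes come from the same 4 goats, so a count over classes is not repeated evidence. Counts were simulated for cumulus granulosa-like nuclei from a profile common to the goats. The same spread was set for all genes and not taken from the data. The same fit found 1% of genes changed by a fold of 2 and 43.9% of those changed by a fold of 4. In that setting differences of such size could be missed, and recovery in the other classes was not simulated.

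The largest log2 differences were those of PDE10A in cycling granulosa-like nuclei (2.22, SE 0.99), where the breeds overlapped, and of PDE4D in the progenitor cluster (2.14, SE 0.43). PDE4D there was 70.0 and 59.9 CPM in the Du'an goats and 419.5 and 179 CPM in the Nubian goats, without overlap. Its unadjusted p by edgeR was 0.00264 and its adjusted p 1, while DESeq2 called it (adjusted p = 0.0257). PDE5A in the granulosa-like cluster without a state was 13.5 and 20.2 CPM in the Du'an goats and 23.7 and 95.8 CPM in the Nubian goats, a log2 difference of 2.11 (SE 0.52, adjusted p = 0.541). The value of Du'an replicate 2 came from 12 UMIs in 109 nuclei and that of Nubian replicate 1 from 3 UMIs in 47 nuclei. The lack of overlap between the breeds in this class therefore rests on few counts. Nubian replicate 2 alone held the high value. That difference was called in 3 alternatives, with the highest doublet scores removed (3.11, adjusted p = 0.000636), with the markers left out of the clustering (2.76, adjusted p = 0.0118) and without the filter on low counts (2.12, adjusted p = 0.00332). edgeR's test of whether the breed difference varied over the 12 classes called 0 of the 8 genes, the lowest adjusted p being 0.836, for PDE4D. With 1 library per goat and 2 goats per breed, breed cannot be told apart from anything else that the 2 goats share.

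**Figure D5:**
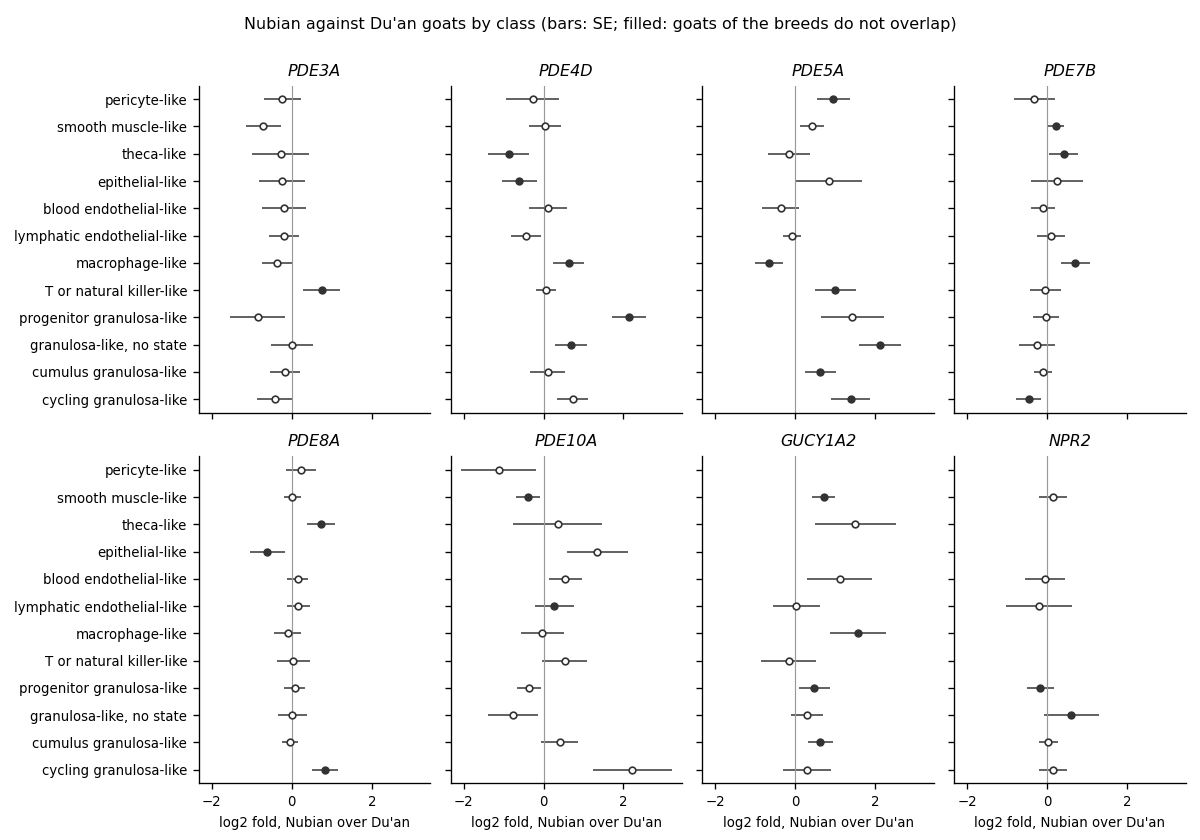
Log2 difference of Nubian minus Du'an goats for each gene and class, with bars of 1 SE from edgeR; filled points mark classes in which the goats of the breeds did not overlap. The estimates ran from -1.12 for PDE10A in pericyte-like nuclei to 2.22 for PDE10A in cycling granulosa-like nuclei, and none passed an adjusted p of 0.05.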

How the data were processed

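Single nuclei from the ovaries of 4 goats were sequenced by a droplet method. The authors deposited 1 matrix for each goat, holding raw UMI counts (genes by nuclei) from Cell Ranger, as version 5.0.0 in the paper and 3.1.0 in the matrix headers. The paper gives the reference genome as a link to a goat assembly, whose name is not given in the sources used here, so no coordinates are printed. RefSeq genes of ARS1.2 were used only for neighbouring genes, and whether they are the annotation the authors counted on is not known. Marker tables that the authors deposited hold their own comparisons of clusters (p-values, log folds and shares of nuclei) and were not used.

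The genes, lists and tests were chosen with earlier results of these data known. Nuclei within 2 SD of the mean of UMIs and genes, with at most 20% mitochondrial UMIs, were kept. Scrublet marked 0, 154, 0 and 1 nuclei, which is not a working call, so doublets were not removed, and removing the 10% of nuclei with the highest scores was an alternative. Libraries shared 502 pairs of barcodes, removed as an alternative. Clusters (scanpy 1.11.5, leidenalg 0.10.2, 2000 variable genes, 30 components, resolution 0.8) were named from marker genes (at least 3 at 10 CPM and a log2 fold of 1). The naming limits were set after seeing the data. Sums of at least 20 nuclei per goat and class (54 sums of 60970 to 22105082 UMIs) were tested with edgeR 4.0.16 (quasi-likelihood, TMM, filter on low counts) in R 4.3.3, with Benjamini-Hochberg adjustment over all genes and a limit of 0.05. The block is the goat itself in the fits of classes, states and clusters, since its classes come from the same animal. Fold changes of genes with few counts depend on the prior count.

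The rule for named genes took the 9 genes everywhere, up to 3 other pathway genes called in each direction per class with the largest fold and at least 10 CPM, and the 3 genes with the most similar levels per gene. Of 58 pathway genes chosen, 57 were in the files. In the fits of classes, states and clusters the p-values measure what still varies between sums once goat and class are fitted. In the breed fit they measure the spread between goats of the same breed. Shares of nuclei were taken at 1000 UMIs, which left out 2566, 1307, 3350 and 3118 shallower nuclei. Exact 95% intervals, and upper limits where a count is 0, cover only counting error. Simulated counts were drawn from a common profile, without differences among classes or goats. The same spread was set for all genes and not taken from the data, and only genes above a minimum count were changed. The recoveries hold for that setting only. The class fit recovered 45.2% and 84.9% of genes changed by a fold of 2 and 4 in smooth muscle-like nuclei. The state fit recovered 32.3% and 97.8% in the mural state, and the fit of clusters 17.6% and 88.1%. DESeq2 1.42.0 and the other alternatives are given with their effect under the processing results. A gene that the rule for similar levels names is not reported here.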

Additional observations from a re-analysis of the deposited data

Results flagged for a closer look

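In 91 groups of 4 goats, 1 goat's gap to the nearest of the others was set against the range of the group, and 8 groups had a gap larger than the limit for 4 samples, where chance alone gives about 1 in 20. PDE5A in the granulosa-like cluster without a state was 95.8 CPM in Nubian replicate 2 and 13.5 to 23.7 in the others, and in smooth muscle-like nuclei it was 97.1 CPM in Du'an replicate 1 and 179 to 188 in the others. PDE7B in theca-like nuclei was 573 CPM in Du'an replicate 2 and 958 to 1032 in the others.

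PDE10A stood apart in 3 classes: at 66.7 CPM in the blood endothelial-like nuclei of Nubian replicate 1 (29.5 to 34.9 in the others), at 60.9 CPM in the cycling granulosa-like nuclei of Nubian replicate 2 (5.53 to 8.39) and at 82.1 CPM in the smooth muscle-like nuclei of Du'an replicate 2 (46.5 to 48.5). GUCY1A2 was 49.2 CPM in the epithelial-like nuclei of Du'an replicate 1, from 3 UMIs (6.43 to 13.3 in the others), and 222 CPM in the progenitor granulosa-like nuclei of Du'an replicate 2 (463 to 509.8). The causes of these gaps were not tested.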

How the results depend on the processing

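Of the 76 calls across classes 53 were kept in every alternative that gave a value. Of the 23 calls among granulosa states, mural against cumulus included, 8 were kept, and of the 4 between blood endothelial clusters 3. A missing value did not count as a loss. The fibroblast-like calls of PDE3A and PDE5A, from Nubian replicate 1 alone, are among the 53 and could not be tried without that goat. Of the fold changes recomputed, 2111 of 2253 across classes, 596 of 686 among states, 75 of 80 between clusters and 63 of 69 between breeds kept their direction and side of the threshold. With nuclei classed by a marker gate, GUCY1A2 in the granulosa class without a state (-0.025) and in the mural class (0.41), PDE3A in the progenitor class (0.39), ADCY5 in the granulosa class without a state (-1.45) and PDE9A in smooth muscle (0.26) turned direction. Without Nubian replicate 2, NPPC in epithelial-like nuclei (-1.07) and PDE10A in mural nuclei (-0.52) turned. With other goats left out in turn they ranged up to 4.12 and 1.99, but NPPC had no value without Nubian replicate 1. With the markers left out of the variable genes ABCC4 in the cycling state turned (0.036). The cause of these turns was not tested.

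Mural against cumulus had 2 lower calls under DESeq2 and 2 with the highest doublet scores removed. The states had 6 lower calls under the marker gate. Between breeds 1 of 89 combinations of a gene and a class was called higher under DESeq2. Over all genes 0.352% of combinations were called in either direction. With the highest doublet scores removed 1 of 92 was called higher, against 0.0398% of all. With the markers left out of the variable genes it was 1 of 89, against 0.0141%. Without a filter it was 4 of 104, against 0.927%. These 4 were PDE10A in the cycling state, PDE4D and PDE5A in the progenitor cluster, and PDE5A in the cluster without a state. Leaving out 1 goat gave 31 to 36 higher and 33 to 37 lower calls across classes and 5 to 8 and 7 to 10 among states. It gave 3 to 4 and 1 to 1 in mural against cumulus, and 1 to 1 and 2 to 3 between the clusters. Between breeds such a fit leaves 1 goat in a breed, so no counts are given. For the alternatives of classes, states and clusters the shares over all genes are not given here. A move of the genes described here can thus not be told apart from a move of the whole fit. At full depth the shares of nuclei with a UMI were 30.1% for PDE5A in pericyte-like, 68.1% for PDE8A in mural granulosa-like, 42.0% for PDE10A in epithelial-like, 46.9% for GUCY1A2 in progenitor granulosa-like, 6.08% for NPR2 in smooth muscle-like and 0.737% for NPPC in blood endothelial-like nuclei.

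The replicate numbers of the 2 breeds do not pair the goats: the deviations of same-numbered goats correlated between -0.236 and 0.0896 over 12 classes, with 0 over 0.1. With the replicate number as a block the breed fit called 0 of the genes, and without the goat as a replicate block the states had 7 lower calls. Some fold changes had no value: 11 under the marker gate, 10 and 1 at a resolution of 0.4 and 8 without Nubian replicate 1. A class was absent there, or the gene was not tested, as NPPC without Nubian replicate 1. Depth limits NPPC, with 67 UMIs in all, and NPR2 most.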
